A study of Homo sapiens with 14 samples.

Results

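Knockdown of the amino acid transporter LAT1 and knockdown of the histone methyltransferase EZH2 were compared in KYSE510, an esophageal squamous cell carcinoma line, for the genes that answered to 1 target and not the other or that moved in opposite directions. Of 63677 genes listed, 10804 had a mean of at least 1 FPKM (fragments per kilobase of transcript, scaled to library size) in both expression tables and were compared. The mean of 11678 genes reached 1 FPKM in the LAT1 table and that of 11585 in the EZH2 table. Next to that limit, SLC35E4 was kept with 1 FPKM in the LAT1 table and 1.14 FPKM in the EZH2 table, and CTD-2528L19.6 was left out with 0.998 and 1.57 FPKM.

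RNA was sequenced 48 h after transfection of small interfering RNA (siRNA) with Lipofectamine RNAiMAX. The LAT1 series held siLAT1-2, siLAT1-3 and a negative control siRNA, siNC, and the EZH2 series held siEZH2-1, siEZH2-2 and an siNC of its own, with 2 libraries in each of the 6 groups and 12 in all. All cells were of 1 line. Whether the libraries of a group derive from different culture dishes is not stated, and a p-value here may therefore reflect technical spread alone. Both siNC libraries of the LAT1 series carry the number 1 in their titles, but 1 and 2 in their descriptions, which were followed here. Each target was studied in its own series and table, so the target and the series cannot be told apart. The recovered depth was lower in the LAT1 series (12780000 to 16700000 counted reads or fragments per library) than in the EZH2 series (21160000 to 27160000). Libraries of a group correlated at r = 0.993 to 0.995 across genes. All 15 squamous epithelial markers examined, among them KRT5, TP63 and SFN, reached 1 FPKM in both tables. Summed levels of 11 fibroblast, 15 immune and 8 endothelial markers stayed at 3.41 FPKM or less in every library. PECAM1 and EMCN were at 0 in every library, PTPRC and COL1A2 reached at most 0.02 FPKM and DCN 0.04 FPKM. COL1A1 stood at 2.01 to 2.17 FPKM with siLAT1 and 1.62 to 1.94 FPKM with its siNC, and at 1.07 to 1.47 FPKM with siEZH2 and 0.94 to 1.12 FPKM with its siNC. In the LAT1 series CDH5 stood at 0.97 to 1.10 FPKM and FAP at 0.54 to 0.99 FPKM, whereas in the EZH2 series CDH5 reached at most 0.03 FPKM and FAP was at 0. CSF1R ranged from 0.62 to 1.36 FPKM over all libraries. The summed endothelial markers were 1.34 to 1.65 FPKM with siLAT1 and 1.28 to 1.53 FPKM with its siNC, and 0.10 to 0.20 FPKM with siEZH2 and 0.08 to 0.12 FPKM with its siNC.

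LAT1, the product of SLC7A5, works with the heavy chain encoded by SLC3A2 at the cell surface, where it brings in leucine, methionine and other large neutral amino acids in exchange for glutamine. Shortage of amino acids activates the kinase GCN2, which raises translation of the transcription factor ATF4, and lowers the activity of mTORC1, a kinase complex that drives growth. EZH2 is the catalytic subunit of Polycomb repressive complex 2 (PRC2), which methylates histone H3 at lysine 27 with methyl groups drawn from methionine and so keeps developmental genes silent. Squamous carcinomas often carry high levels of both proteins.

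The LAT1 effect is the mean of siLAT1-2 and siLAT1-3 minus siNC on the log2(FPKM + 1) scale, the EZH2 effect is the same for its own series, and the difference is the LAT1 effect minus the EZH2 effect. A positive difference therefore means that a gene stood higher with LAT1 siRNAs than with EZH2 siRNAs, each relative to its own siNC, whichever of the effects is larger. A gene was called at a Benjamini-Hochberg adjusted p under 0.05 in limma. This scale understates the change of genes with low levels. Because each gene was measured in bulk RNA, fewer cells that express it and less RNA per cell cannot be told apart.

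The targets themselves behaved unequally. EZH2 measured 16.8 and 18.4 FPKM with siLAT1-2 and 17.3 and 16.2 FPKM with siLAT1-3, against 17.7 and 18.04 FPKM with siNC of the LAT1 series. EZH2 in the EZH2 series measured 6.63 and 7.24 FPKM with siEZH2-1 and 6.40 and 6.04 FPKM with siEZH2-2, against 17.1 and 17.1 FPKM with siNC of the EZH2 series. The levels with siLAT1 spread around their siNC, and the levels with siEZH2 did not overlap those of any other group. The difference for EZH2 was 1.20 (95% interval 1.03 to 1.37, limma adjusted p = 3.92e-05), with a LAT1 effect of -0.06 (95% interval -0.17 to 0.05).

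SLC7A5 was lowered by siRNAs of both targets. It measured 86.2 and 80.4 FPKM with siLAT1-2 and 107 and 107 FPKM with siLAT1-3, against 407 and 413 FPKM with siNC of the LAT1 series. The EZH2 series gave 184 and 193 FPKM with siEZH2-1 and 596 and 591 FPKM with siEZH2-2, against 733 and 777 FPKM with siNC of the EZH2 series. Relative to siNC, SLC7A5 changed by -2.29 with siLAT1-2 and -1.93 with siLAT1-3, and by -1.998 with siEZH2-1 and -0.35 with siEZH2-2 on the log2 scale. The difference was -0.94 (95% interval -1.06 to -0.81, limma adjusted p = 3.6e-05), but it was -0.29 between siLAT1-2 and siEZH2-1 (limma adjusted p = 0.0151), and between siLAT1-3 and siEZH2-1 it was 0.07 (95% interval -0.08 to 0.21, limma adjusted p = 0.516). The transcript of its heavy chain, SLC3A2, fell in both series, with a LAT1 effect of -1.13, an EZH2 effect of -0.83 and a difference of -0.30 (95% interval -0.44 to -0.15, limma adjusted p = 0.0135). With siEZH2-1 SLC3A2 changed by -1.498, and with siEZH2-2 by -0.17, which did not pass the test (limma adjusted p = 0.102). Its difference lost the call with siRNAs pooled, without the second siNC library of the LAT1 series and without the first of the EZH2 series.

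Across all 10804 genes the difference was called for 1605 (14.9%). Of these, 861 (7.97%) stood higher with LAT1 siRNAs relative to EZH2 siRNAs and 744 (6.89%) lower. The LAT1 effect was called for 3919 genes (36.3%) and the EZH2 effect for 3466 (32.1%). Both effects were called in the same direction for 1752 genes (16.2%) and in opposite directions for 164 (1.52%). Among the 1605 genes with a called difference, both effects were called in the same direction for 284 and in opposite directions for 164, the LAT1 effect alone was called for 445 (4.12% of all genes), the EZH2 effect alone for 637 (5.9%) and neither for 75. Most differences were small, with a median absolute size of 0.38 among those called, and 24 reached 1 in size, 13 higher and 11 lower.

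Which siRNA was used mattered for many of these genes. The difference was called in the same direction for all 4 pairings of a LAT1 siRNA with an EZH2 siRNA for 136 genes higher (1.26%) and 76 lower (0.703%). With both siRNAs of a target pooled as 1 group of 4 libraries, 35 genes were called, 28 higher and 7 lower, and each of the 35 was also called in the fit with separate siRNAs. Of 138 genes named by rule, 14 kept the call under each alternative setting in which they were tested: EZH2, RP11-613M10.6, TCEB3, SERINC3, POM121C, NSF, TMEM194A, CYBRD1, C5orf28, DUSP3, MYC, DUSP4, IL1A and TNFAIP2. In place of 1605, 748 genes were called without the first siNC library of the LAT1 series, 771 without the second and 817 without the first siNC library of the EZH2 series.

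**Figure D1:**
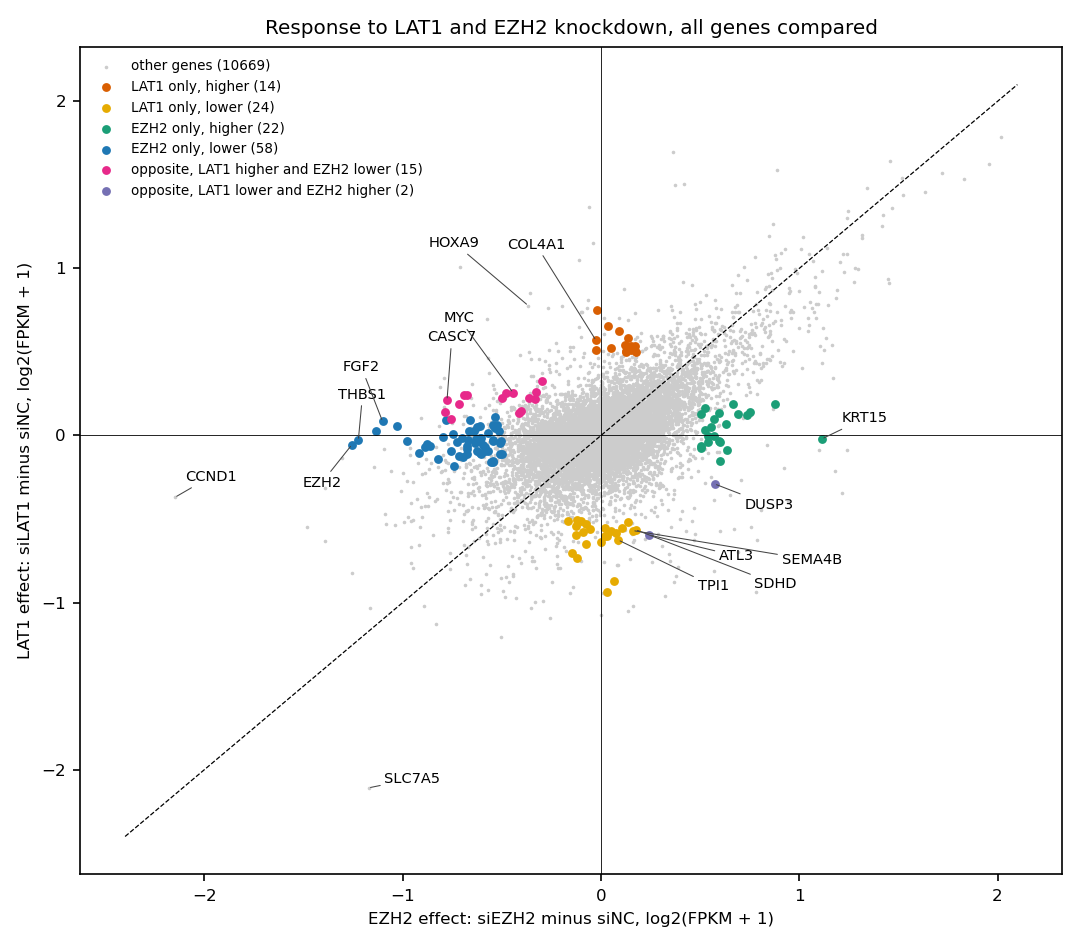
LAT1 effect (vertical axis) against EZH2 effect (horizontal axis) for 10804 genes, both in log2(FPKM + 1) relative to each series' own siNC; coloured points are the 135 genes placed in a class and the dashed line marks equal effects. Most genes cluster near 0 on both axes, EZH2 and THBS1 lie far left at a LAT1 effect near 0, and the 15 genes of the upper left class rose with LAT1 siRNAs and fell with EZH2 siRNAs.

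Genes were placed in classes by strict limits. A gene specific to 1 target had a called difference, a called effect of at least 0.5 with the mean and in the same direction with each siRNA of that target, and an effect of the other target that was not called, whose 95% interval lay within 0.4 of 0 and whose siRNA estimates both lay within 0.4 of 0. A single siRNA of the other target could still be called, so the word specific refers to the mean effect. Such limits placed 38 genes in the LAT1-specific classes, 14 higher (0.13%) and 24 lower (0.222%), and 80 in the EZH2-specific classes, 22 higher (0.204%) and 58 lower (0.537%). Of the 22, ERP27, LL22NC03-80A10.6, SAMD15 and OSCP1 had siNC means of 0.535, 0.82, 0.865 and 0.92 FPKM in the EZH2 series. Only their siEZH2 libraries lifted them past the filter there, so they are counted but their differences are not given. Next to the size limit, ADCY3 was inside with a LAT1 effect of 0.50 and ECI2 outside with -0.49, and RNF121 was inside with an EZH2 effect of -0.50 and SEC24D outside with -0.4996. A further 17 genes were called with every siRNA of both targets and moved in opposite directions. These values chose the members, and the effects given below describe them. The EZH2-specific genes numbered 50 with a filter at 5 FPKM, 12 with siRNAs pooled, 122 with the tables fitted separately, 52 without the second siEZH2-1 library and 45 without the first siNC library of the EZH2 series, and the LAT1-specific genes numbered 3 with siRNAs pooled and 21 without the first siNC library of the LAT1 series. Membership also shifted where sizes did not. With 0.1 in place of 1 added to FPKM, the LAT1-specific higher class again held 14 genes, 7 of them shared. The EZH2-specific higher class then held 33 with 15 shared, and the lower class 70 with 52 shared. With no filter, 7 of the 22 EZH2-specific higher genes were shared.

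The EZH2-specific genes that fell formed the largest class, in which single LAT1 siRNAs were called for some members. Besides EZH2 itself, its members with the widest differences included THBS1, which encodes thrombospondin 1, a matrix protein that activates latent TGF-beta. THBS1 measured 75.1 and 78.1 FPKM with siLAT1-2 and 58.9 and 57.4 FPKM with siLAT1-3, against 66.1 and 70.2 FPKM with siNC of the LAT1 series. THBS1 in the EZH2 series measured 80.4 and 74.4 FPKM with siEZH2-1 and 34.3 and 40.1 FPKM with siEZH2-2, against 132 and 122 FPKM with siNC of the EZH2 series. The siLAT1-2 libraries lay above and the siLAT1-3 libraries below their siNC, whereas every siEZH2 library lay below its own. The changes with siLAT1-2 (0.17) and siLAT1-3 (-0.225) were each called (limma adjusted p = 0.0158 and 0.005). The difference for THBS1 was 1.20 (95% interval 1.00 to 1.39, limma adjusted p = 1.06e-04). FGF2, a fibroblast growth factor that drives proliferation through its receptors, measured 7.94 and 8.57 FPKM with siLAT1-2 and 12.1 and 11.1 FPKM with siLAT1-3, against 9.13 and 9.25 FPKM with siNC of the LAT1 series. FGF2 in the EZH2 series stood at 2.69 and 2.00 FPKM with siEZH2-1 and 3.27 and 3.53 FPKM with siEZH2-2, against 7.90 and 6.57 FPKM with siNC of the EZH2 series. Levels with siLAT1-2 lay below and with siLAT1-3 above their siNC, and all levels with siEZH2 below theirs. FGF2 was called higher with siLAT1-3 (0.31, limma adjusted p = 0.00635). Its LAT1 effect was 0.08 (95% interval -0.03 to 0.20) and its EZH2 effect -1.10, a difference of 1.19 (limma adjusted p = 3.87e-04).

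SAA1, an acute-phase protein induced by interleukins, measured 11.5 and 9.51 FPKM with siLAT1-2 and 5.97 and 6.23 FPKM with siLAT1-3, against 8.95 and 6.89 FPKM with siNC of the LAT1 series. SAA1 in the EZH2 series stood at 6.10 and 5.88 FPKM with siEZH2-1 and 4.71 and 4.10 FPKM with siEZH2-2, against 11.2 and 13.8 FPKM with siNC of the EZH2 series. The siLAT1-2 libraries lay above and the siLAT1-3 libraries below their siNC, and all siEZH2 libraries lay below theirs. The difference was 1.16 (limma adjusted p = 0.00133). LINC00657, now named NORAD, is a long noncoding RNA that binds Pumilio proteins and guards chromosome stability. It measured 115 and 117 FPKM with siLAT1-2 and 74.98 and 72.6 FPKM with siLAT1-3, against 88.1 and 89.8 FPKM with siNC of the LAT1 series. LINC00657 in the EZH2 series stood at 64.4 and 55.1 FPKM with siEZH2-1 and 29.6 and 33.3 FPKM with siEZH2-2, against 95.02 and 83.8 FPKM with siNC of the EZH2 series. With the LAT1 siRNAs it stood above siNC with siLAT1-2 and below it with siLAT1-3. Its mean LAT1 effect of 0.06 therefore averages changes of 0.38 and -0.27, which were each called. With both EZH2 siRNAs it stood below siNC. AP1AR, a partner of a clathrin adaptor complex, had a LAT1 effect of -0.03, an EZH2 effect of -0.98 and a difference of 0.95 (limma adjusted p = 8.11e-04). The difference was called in all 4 pairings for 31 of the 58 genes of this class, beside 1.26% of all genes called higher, but the limits of the class favour such calls.

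The other members of the class that also stood in a gene list were BIRC3, IL1B, LIF and TNFAIP2 of the inflammatory list, FOSL1, PHLDA1 and SPRY2 of the EGFR and MAPK list, HOXA10 and SOX7 of the Polycomb targets, FAS and GADD45A of the p53-responsive genes, SMAD7, MTRR, FJX1 and HERPUD1. The members of the class differed by 0.39 to 1.20 in absolute size.

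KRT15, a keratin of basal squamous cells that also marks long-lived progenitors in the mouse esophagus, rose the most among the 22 EZH2-specific genes that rose. KRT15 measured 50.8 and 45.02 FPKM with siLAT1-2 and 48.7 and 56.1 FPKM with siLAT1-3, against 54.5 and 47.2 FPKM with siNC of the LAT1 series. KRT15 in the EZH2 series stood at 63.1 and 59.1 FPKM with siEZH2-1 and 97.9 and 78.8 FPKM with siEZH2-2, against 30.8 and 35.9 FPKM with siNC of the EZH2 series. The siLAT1 libraries overlapped their siNC, and every siEZH2 library lay above its own. The difference was -1.13 (95% interval -1.46 to -0.81, limma adjusted p = 0.00101). NSF, an ATPase that takes apart SNARE complexes after membrane fusion, had a LAT1 effect of -0.04 (95% interval -0.12 to 0.04) and an EZH2 effect of 0.54. POM121C, a nuclear pore protein, had a LAT1 effect of -0.07 and an EZH2 effect of 0.50. DPCD, a protein linked to cilia, had an EZH2 effect of 0.63, while siLAT1-2 gave 0.15 and siLAT1-3 -0.32. C9orf37 and C21orf119 completed the named genes, with differences of -0.64 and -0.62. C21orf119 changed by -0.13 with siLAT1-2 and 0.37 with siLAT1-3, and by 1.12 with siEZH2-1 and 0.36 with siEZH2-2. Between siLAT1-3 and siEZH2-2 its difference was 0.01 (limma adjusted p = 0.954), so its place in the class rested on the means. POM121C, NSF, SAA1, KRT14 and KRT16 have near-identical copies in the genome, and how the authors counted shared reads is not stated, so their values are uncertain. In all 4 pairings, 5 of the 22 were called, among them OSCP1, which passed the filter in the EZH2 table only through its siEZH2 libraries.

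Genes specific to LAT1 knockdown numbered 38. RP11-613M10.6 led the 14 that rose, with 18.3 and 18.8 FPKM with siLAT1-2 and 17.1 and 16.2 FPKM with siLAT1-3, against 9.55 and 10.5 FPKM with siNC of the LAT1 series. RP11-613M10.6 in the EZH2 series stood at 13.5 and 12.2 FPKM with siEZH2-1 and 13.5 and 12.2 FPKM with siEZH2-2, against 12.7 and 13.4 FPKM with siNC of the EZH2 series. The siLAT1 libraries did not overlap siNC and the siEZH2 libraries did, with a difference of 0.78 (95% interval 0.58 to 0.97, limma adjusted p = 4.76e-04). COL4A1, a chain of the type IV collagen of basement membranes, measured 14.1 and 14.6 FPKM with siLAT1-2 and 17.3 and 16.7 FPKM with siLAT1-3, against 9.95 and 10.5 FPKM with siNC of the LAT1 series. COL4A1 in the EZH2 series stood at 10.2 and 10.2 FPKM with siEZH2-1 and 8.25 and 9.41 FPKM with siEZH2-2, against 10.3 and 9.08 FPKM with siNC of the EZH2 series. Every siLAT1 library lay above its siNC, and the siEZH2 libraries overlapped theirs. Its LAT1 effect was 0.57 and its EZH2 effect -0.03 (95% interval -0.20 to 0.15). COL5A1 and COL4A6, further collagen genes, belonged to the same class with LAT1 effects of 0.54 and 0.54 and EZH2 effects of 0.15 and 0.17. Both were picked out after their values were seen, and collagens were not counted as a set. Among other collagens, COL1A1 had LAT1 and EZH2 effects of 0.16 and 0.20, neither called. COL17A1 stood above its siNC with every siRNA of both targets. TCEB3, the elongin A subunit that speeds RNA polymerase II, had a LAT1 effect of 0.63 and an EZH2 effect of 0.09 (difference 0.54, limma adjusted p = 9.11e-04). ZBED4, a zinc finger protein, MLLT4, the junction protein afadin, and UBLCP1, a phosphatase of the proteasome, had differences of 0.62, 0.47 and 0.54. For UBLCP1 the EZH2 effect of -0.03 averaged -0.40 with siEZH2-1 and 0.35 with siEZH2-2.

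Among the 24 LAT1-specific genes that fell were 2 of energy metabolism. TPI1, the triosephosphate isomerase of glycolysis, measured 359 and 353 FPKM with siLAT1-2 and 177 and 193 FPKM with siLAT1-3, against 402 and 391 FPKM with siNC of the LAT1 series. TPI1 in the EZH2 series stood at 403 and 431 FPKM with siEZH2-1 and 419 and 381 FPKM with siEZH2-2, against 369 and 399 FPKM with siNC of the EZH2 series. The siLAT1-3 libraries stood at less than the level of every other library, and siLAT1-2 lay below siNC by a small margin, so that the LAT1 effect of -0.63 averaged -0.16 and -1.09. SDHD, a membrane anchor of succinate dehydrogenase, measured 21.3 and 22.99 FPKM with siLAT1-2 and 36.8 and 32.2 FPKM with siLAT1-3, against 41.6 and 41.03 FPKM with siNC of the LAT1 series. SDHD in the EZH2 series stood at 90.2 and 82.1 FPKM with siEZH2-1 and 88.4 and 84.1 FPKM with siEZH2-2, against 78.9 and 73.6 FPKM with siNC of the EZH2 series. It fell further with siLAT1-2 (-0.87) than with siLAT1-3 (-0.26), and its difference was -0.74 (95% interval -0.93 to -0.55, limma adjusted p = 6.68e-04). SERINC3, a membrane protein named for serine incorporation, changed evenly, by -0.56 and -0.55 with the LAT1 siRNAs and by 0.13 and 0.08 with the EZH2 siRNAs (difference -0.66, limma adjusted p = 1.56e-04). SEMA4B, a semaphorin, CRIPT, a microtubule-associated protein, and TSN, the translin subunit of an RNA nuclease, had differences of -0.73, -0.66 and -0.66. The difference was called in all 4 pairings for 3 of the 14 that rose and for 8 of the 24 that fell.

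Opposite movement with every siRNA was seen for 17 genes. For all of them the difference was called in all 4 pairings. The limits of the class already fix the sign of each pairing, so those calls are no separate support. MYC, the growth-promoting transcription factor, was 1 of the 15 that rose with LAT1 siRNAs and fell with EZH2 siRNAs. MYC measured 64.8 and 67.5 FPKM with siLAT1-2 and 72.7 and 72.4 FPKM with siLAT1-3, against 58.05 and 57.5 FPKM with siNC of the LAT1 series. With EZH2 siRNAs it measured 9.96 and 9.91 FPKM with siEZH2-1 and 8.18 and 8.19 FPKM with siEZH2-2, against 12.7 and 12.6 FPKM with siNC of the EZH2 series. No siRNA library overlapped its own siNC, and the levels of siNC themselves were far apart between the series. The LAT1 effect was 0.26, the EZH2 effect -0.44 and the difference 0.70 (95% interval 0.60 to 0.80, limma adjusted p = 4.91e-05). CASC7, a noncoding transcript, had the largest difference of the class. CASC7 measured 10.8 and 10.7 FPKM with siLAT1-2 and 10.5 and 9.86 FPKM with siLAT1-3, against 9.18 and 8.61 FPKM with siNC of the LAT1 series. CASC7 in the EZH2 series stood at 5.86 and 5.30 FPKM with siEZH2-1 and 3.03 and 3.49 FPKM with siEZH2-2, against 8.72 and 7.44 FPKM with siNC of the EZH2 series. No siRNA group overlapped its siNC, and the difference was 0.99 (limma adjusted p = 3.32e-04). The rise with LAT1 siRNAs was small for the other named genes of the class, at 0.24 for the arginyltransferase ATE1, 0.14 for the nuclear membrane protein TMEM194A, 0.25 for the iron reductase CYBRD1, 0.19 for C5orf28 and 0.10 for the translation factor subunit EIF3A, beside EZH2 effects of -0.69, -0.78, -0.67, -0.72 and -0.76.

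DUSP3 and ATL3 (0.0185% of genes) fell with LAT1 siRNAs and rose with EZH2 siRNAs by the same limits. DUSP3, a phosphatase that acts on MAP kinases, measured 12.2 and 12.9 FPKM with siLAT1-2 and 11.7 and 11.5 FPKM with siLAT1-3, against 14.9 and 15.00 FPKM with siNC of the LAT1 series. DUSP3 in the EZH2 series measured 23.9 and 24.6 FPKM with siEZH2-1 and 29.1 and 30.9 FPKM with siEZH2-2, against 17.9 and 17.8 FPKM with siNC of the EZH2 series. None of the 4 siRNA groups overlapped its siNC, and the difference was -0.86 (95% interval -0.99 to -0.74, limma adjusted p = 4.91e-05). ATL3, an atlastin that fuses tubules of the endoplasmic reticulum, had a LAT1 effect of -0.60, an EZH2 effect of 0.24 and a difference of -0.84. The class of 17 was sensitive to the libraries used, and held 5 genes without the first siNC library of the LAT1 series and 14 at most with any library left out. It held 5 genes with no filter, 6 with siRNAs pooled and 8 with the replicate number as a block.

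**Figure D2:**
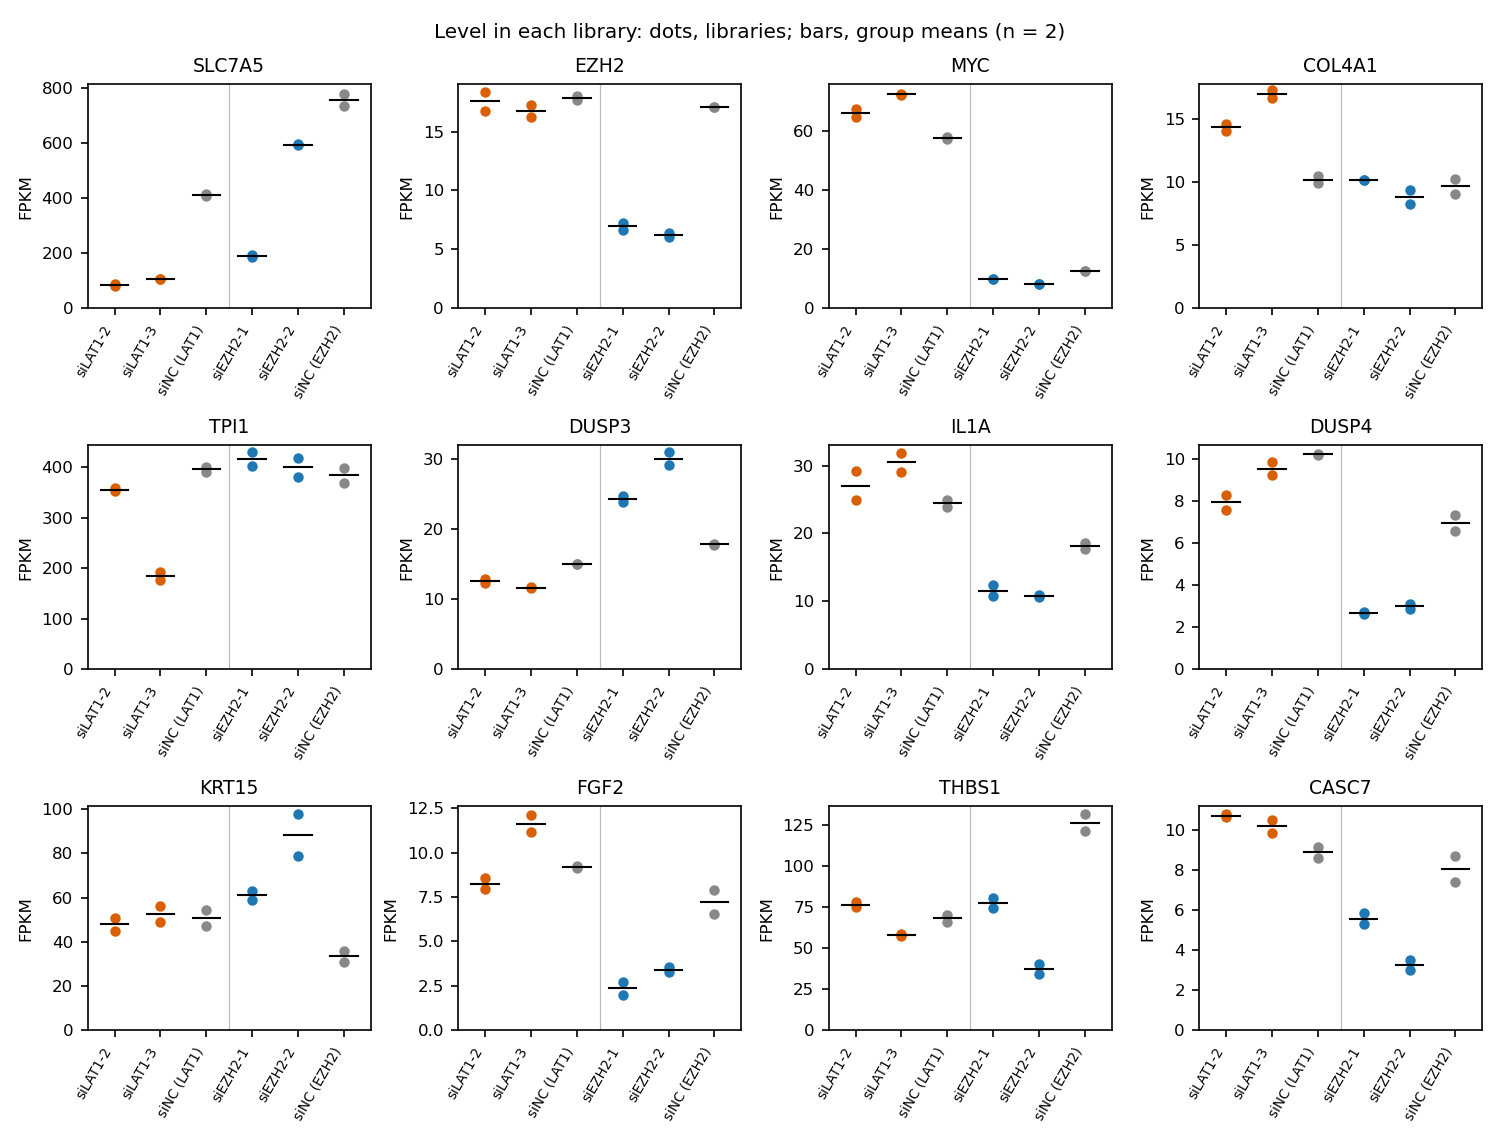
FPKM of 12 genes in each library, with siLAT1 groups and their siNC left of the grey line and siEZH2 groups and their siNC right of it; dots are libraries and bars group means. EZH2, FGF2 and IL1A were low with both siEZH2, MYC rose with siLAT1 and fell with siEZH2, DUSP3 did the reverse, and TPI1 was lowest with siLAT1-3.

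Gene lists were described by the number of members called for the difference, beside the share over all genes (14.9%; 7.97% higher and 6.89% lower; median difference -0.01). The lists were chosen with earlier results of these data known. The 30 lists held between 13 and 76 tested members each. Over all 10804 genes, the LAT1 effect was called higher for 2158 and lower for 1761. For the EZH2 effect these counts were 1942 higher and 1524 lower. No share over all genes is given for single siRNAs, so counts taken by siRNA can be compared only within a list. Inflammatory, MAPK, mesenchymal and amino acid response genes leaned towards a higher difference, and histone and mitochondrial transcripts towards a lower one. A higher difference is relative to EZH2 siRNAs, and more MAPK and mesenchymal genes fell than rose with LAT1 siRNAs too.

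Of 23 inflammatory genes tested, 12 had a higher difference and 0 a lower one in limma, with a median of 0.34. In all 4 pairings, 8 of them were called. The LAT1 effect was called higher for 10 and lower for 4, and the EZH2 effect higher for 3 and lower for 11. Taken by siRNA, 10 rose and 2 fell with siLAT1-2 (median 0.18), but 7 rose and 6 fell with siLAT1-3 (median -0.02). With siEZH2-1 1 rose and 11 fell (median -0.16), and with siEZH2-2 3 rose and 9 fell (median -0.25). With a filter at 5 FPKM 7 members were called higher. IL1A, the alarm cytokine interleukin 1 alpha, measured 24.9 and 29.2 FPKM with siLAT1-2 and 31.9 and 29.02 FPKM with siLAT1-3, against 24.9 and 23.9 FPKM with siNC of the LAT1 series. IL1A in the EZH2 series stood at 12.4 and 10.7 FPKM with siEZH2-1 and 10.9 and 10.6 FPKM with siEZH2-2, against 18.6 and 17.6 FPKM with siNC of the EZH2 series. All siEZH2 libraries lay below their siNC, whereas siLAT1-3 lay above its siNC and siLAT1-2 overlapped it in range. The difference was 0.88 (95% interval 0.64 to 1.11, limma adjusted p = 7.07e-04). IL1B, a related cytokine, had a LAT1 effect of -0.03 (95% interval -0.15 to 0.08) and an EZH2 effect of -0.62. TNFAIP2, a target of tumour necrosis factor, had a LAT1 effect of -0.07, an EZH2 effect of -0.89 and a difference of 0.82 (limma adjusted p = 1.18e-04). IL1B with siNC stood at 21.6 and 21.2 FPKM in the LAT1 series and 5.03 and 5.10 FPKM in the EZH2 series, and TNFAIP2 at 54.4 and 56.2 FPKM and 17.2 and 18.7 FPKM. The NF-kB subunits themselves, NFKB1 and NFKB2, chosen after their values were seen, differed by 0.26 and 0.29. Immune markers summed to 1.36 to 1.58 FPKM with siLAT1 and 1.85 to 1.89 FPKM with its siNC, and to 1.31 to 1.75 FPKM with siEZH2 and 1.55 to 1.57 FPKM with its siNC; their part in the result was not tested.

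The promoter of IL1A holds the letters of the AP-1 motif, TGACTCA, a site bound by Fos and Jun proteins, and is shown because IL1A differed between the targets in all 4 pairings. The RefSeq sequence (GRCh38.p14) lies at chr2:112784444-112784743 on the minus strand, runs from 250 bases before to 50 after the annotated start, and has the motif in capitals, from position -12 relative to the start and again, as its reverse complement TGAGTCA, from position 39.
IL1A: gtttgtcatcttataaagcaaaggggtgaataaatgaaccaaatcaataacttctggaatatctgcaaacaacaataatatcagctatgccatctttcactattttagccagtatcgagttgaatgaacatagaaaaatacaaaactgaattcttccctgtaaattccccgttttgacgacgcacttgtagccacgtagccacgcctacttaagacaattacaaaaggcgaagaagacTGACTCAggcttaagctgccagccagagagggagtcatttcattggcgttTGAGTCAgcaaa
TGACTCA was present on either strand in 1738 of 35116 promoters (4.95%), in at least 1 promoter of 390 of 8289 tested genes (4.71%), in 2 of the 18 inflammatory genes with a promoter in the table, IL1A and CXCL8, and in 3 of 24 genes of the EGFR and MAPK list. A match describes the letters and not a bound site.

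Growth factor and MAPK genes also held more higher than lower differences. Of 34 EGFR ligands, MAPK feedback genes and immediate early genes, 14 had a higher difference and 0 a lower one, with a median of 0.18, and 5 were called in all 4 pairings. The LAT1 effect was called higher for 5 and lower for 12, and the EZH2 effect higher for 2 and lower for 18. CCND1, which encodes cyclin D1, the partner of CDK4 and CDK6 in G1, had the largest difference among all genes tested. CCND1 measured 169 and 181 FPKM with siLAT1-2 and 214 and 208 FPKM with siLAT1-3, against 243 and 255 FPKM with siNC of the LAT1 series. CCND1 in the EZH2 series stood at 14.5 and 13.3 FPKM with siEZH2-1 and 38.5 and 43.2 FPKM with siEZH2-2, against 113 and 106 FPKM with siNC of the EZH2 series. It fell in both series, by a LAT1 effect of -0.37 and an EZH2 effect of -2.15, and the difference was 1.78 (95% interval 1.60 to 1.95, limma adjusted p = 5.43e-06). DUSP4, a feedback phosphatase of ERK, measured 7.57 and 8.30 FPKM with siLAT1-2 and 9.86 and 9.21 FPKM with siLAT1-3, against 10.2 and 10.2 FPKM with siNC of the LAT1 series. DUSP4 in the EZH2 series stood at 2.63 and 2.71 FPKM with siEZH2-1 and 3.11 and 2.85 FPKM with siEZH2-2, against 6.58 and 7.34 FPKM with siNC of the EZH2 series. All siRNA libraries lay below their siNC, and the difference was 0.85 (95% interval 0.66 to 1.04, limma adjusted p = 2.99e-04). FOSL1, the Fos-family protein of AP-1, had a LAT1 effect of 0.06 and an EZH2 effect of -0.61. Without the second siNC library of the LAT1 series 8 members in place of 14 were called higher. The cyclin D1 and G1 list had 5 of 23 members higher (3 without either siNC library of the LAT1 series or the first of the EZH2 series) and 2 lower, among them CDKN1B, the CDK inhibitor p27, at 0.51 and E2F2, an S-phase transcription factor, at -0.65.

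Mesenchymal and TGF-beta genes gave 13 of 33 members higher and 2 lower, with a median of 0.15 and 2 called higher in all 4 pairings, THBS1 and COL4A1. More members fell than rose in either series, with the LAT1 effect called higher for 7 and lower for 11 (median -0.07) and the EZH2 effect higher for 3 and lower for 14 (median -0.13). TGFBR2, the type II receptor for TGF-beta, fell with siLAT1-3 (-1.01) and siEZH2-2 (-2.49) more than with siLAT1-2 (-0.09) and siEZH2-1 (-0.47), so that its difference of 0.93 depended on the siRNA. TGFB2, a TGF-beta ligand, had a difference of 0.45. CTGF and MMP1 were the 2 lower members, named after their values were seen, at -0.41 and -0.61. Without the first siNC library of the LAT1 series 5 members were called higher in place of 13, and without the second 7, and the 2 lower members became 1 or 0 without any 1 of 10 libraries. Fibroblast markers summed to 3.20 to 3.41 FPKM with siLAT1 and 2.64 to 3.20 FPKM with its siNC, and to 1.13 to 1.53 FPKM with siEZH2 and 0.99 to 1.19 FPKM with its siNC; their part in the result was not tested.

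The amino acid response, the ATF4 programme that answers to amino acid shortage, had 13 of 39 members with a higher difference and 1 lower, and a median of 0.16. The LAT1 effect was called higher for 21 and lower for 3, and the EZH2 effect higher for 6 and lower for 11. Taken by siRNA, 18 members rose and 4 fell with siLAT1-2 (median 0.13) and 21 rose and 1 fell with siLAT1-3 (median 0.17). The EZH2 siRNAs were unlike each other, with 9 higher and 3 lower for siEZH2-1 (median 0.06) and 4 higher and 9 lower for siEZH2-2 (median -0.08). In all 4 pairings 2 members were called, CTH and CEBPG, and without the first siNC library of the LAT1 series 4 were called higher in place of 13, 5 without the second and 8 without the first siNC library of the EZH2 series. ASNS, asparagine synthetase, measured 21.4 and 22.03 FPKM with siLAT1-2 and 24.3 and 24.1 FPKM with siLAT1-3, against 17.6 and 18.5 FPKM with siNC of the LAT1 series. With EZH2 siRNAs it measured 30.7 and 34.8 FPKM with siEZH2-1 and 17.6 and 17.1 FPKM with siEZH2-2, against 30.6 and 29.5 FPKM with siNC of the EZH2 series. It rose with both LAT1 siRNAs and stood below siNC with siEZH2-2 only, and the difference was 0.65 (95% interval 0.49 to 0.81, limma adjusted p = 4.05e-04). TRIB3, a pseudokinase induced by ATF4, rose with both LAT1 siRNAs (0.84 and 0.97), and stood at 0.86 with siEZH2-1 and 0.05 with siEZH2-2. XPOT, a tRNA export factor, and MTHFD2, a mitochondrial folate enzyme, had differences of 0.67 and 0.43, with LAT1 effects of 0.05 and 0.16 that did not pass the test (limma adjusted p = 0.143 and 0.0602). CTH, which makes cysteine, changed by 0.42 and 0.46 with LAT1 siRNAs and 0.01 and 0.07 with EZH2 siRNAs. CEBPG, a partner of ATF4, changed by 0.29 and 0.25 with LAT1 siRNAs and -0.01 and -0.08 with EZH2 siRNAs. Both were picked out after their values were seen. ATF3, a stress transcription factor, was the lower member, named after its value was seen, at -0.27, and rose in both series. ATF4 transcript itself had a difference of 0.10 (95% interval -0.04 to 0.25, limma adjusted p = 0.31).

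Among amino acid carriers, SLC7A1, which carries cationic amino acids, and SLC1A3, a glutamate and aspartate carrier, stood higher with LAT1 siRNAs in all 4 pairings. SLC7A1 measured 32.2 and 31.8 FPKM with siLAT1-2 and 33.4 and 32.4 FPKM with siLAT1-3, against 24.9 and 24.8 FPKM with siNC of the LAT1 series. SLC7A1 in the EZH2 series stood at 25.8 and 23.8 FPKM with siEZH2-1 and 32.5 and 37.1 FPKM with siEZH2-2, against 37.8 and 34.9 FPKM with siNC of the EZH2 series. Levels rose above siNC with both LAT1 siRNAs, lay below it with siEZH2-1 and overlapped it with siEZH2-2, and the difference was 0.67 (95% interval 0.49 to 0.85, limma adjusted p = 7.27e-04). SLC1A3 measured 10.8 and 9.91 FPKM with siLAT1-2 and 10.00 and 11.4 FPKM with siLAT1-3, against 8.80 and 8.52 FPKM with siNC of the LAT1 series. SLC1A3 in the EZH2 series stood at 5.91 and 5.20 FPKM with siEZH2-1 and 5.95 and 7.30 FPKM with siEZH2-2, against 8.18 and 7.90 FPKM with siNC of the EZH2 series. Every siLAT1 library lay above and every siEZH2 library below its siNC, and the difference was 0.61 (95% interval 0.36 to 0.87, limma adjusted p = 0.00722). In all, 3 of 18 carriers had a higher difference and 5 a lower one, and the 5 became 3 and 1 without the first and second siNC library of the LAT1 series and 2 without the first siNC library of the EZH2 series. SLC38A1, a glutamine carrier, differed by 0.48 and lost the call under 10 of 20 alternatives.

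The composite site of ATF4 with a C/EBP protein holds the letters TGATGCA, and 2 promoters that hold it are shown because CEBPG and SLC1A3 were higher with LAT1 siRNAs in all 4 pairings. Both RefSeq sequences (GRCh38.p14) lie on the plus strand, CEBPG at chr19:33373863-33374162 and SLC1A3 at chr5:36596338-36596637, with the motif in capitals, from position -42 relative to the annotated start of CEBPG and from -220 relative to that of SLC1A3.
CEBPG: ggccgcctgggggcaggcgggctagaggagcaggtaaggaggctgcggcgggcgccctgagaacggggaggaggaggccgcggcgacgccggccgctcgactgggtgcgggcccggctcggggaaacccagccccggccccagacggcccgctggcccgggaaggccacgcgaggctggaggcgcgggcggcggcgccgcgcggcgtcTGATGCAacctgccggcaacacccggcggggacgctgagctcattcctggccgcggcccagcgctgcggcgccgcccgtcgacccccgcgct
SLC1A3: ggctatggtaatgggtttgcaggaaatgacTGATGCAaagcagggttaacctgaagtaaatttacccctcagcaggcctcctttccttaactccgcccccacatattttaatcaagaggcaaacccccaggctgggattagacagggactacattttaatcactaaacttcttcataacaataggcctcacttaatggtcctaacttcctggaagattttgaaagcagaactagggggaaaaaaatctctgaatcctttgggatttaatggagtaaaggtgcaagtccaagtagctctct
TGATGCA was found on either strand in 923 of 35116 promoters (2.63%), and in at least 1 promoter of 152 of 8289 tested genes (1.83%) with a promoter in the table. It was present for 8 of 32 amino acid response genes with a promoter, 4 of 16 carriers and 6 of 16 cytosolic aminoacyl-tRNA synthetases. The first of these lists was made of ATF4 targets, so its count is no separate support. CARS1, MARS1 and NARS1 were counted in both the first and the last. Synthetase genes with the motif included TARS1, listed as TARS in the files, whose difference was 0.23, and the synthetase list had 3 of 20 members higher (1 without the first siNC library of the LAT1 series) and 0 lower. That is a share of 15.0% called, beside 14.9% of all genes. The letters were not found in the promoters of CTH and SLC7A1, which were also higher in all 4 pairings, nor at 1 other annotated start of CEBPG and 2 others of SLC1A3. The sites were matched by letters only.

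**Figure D3:**
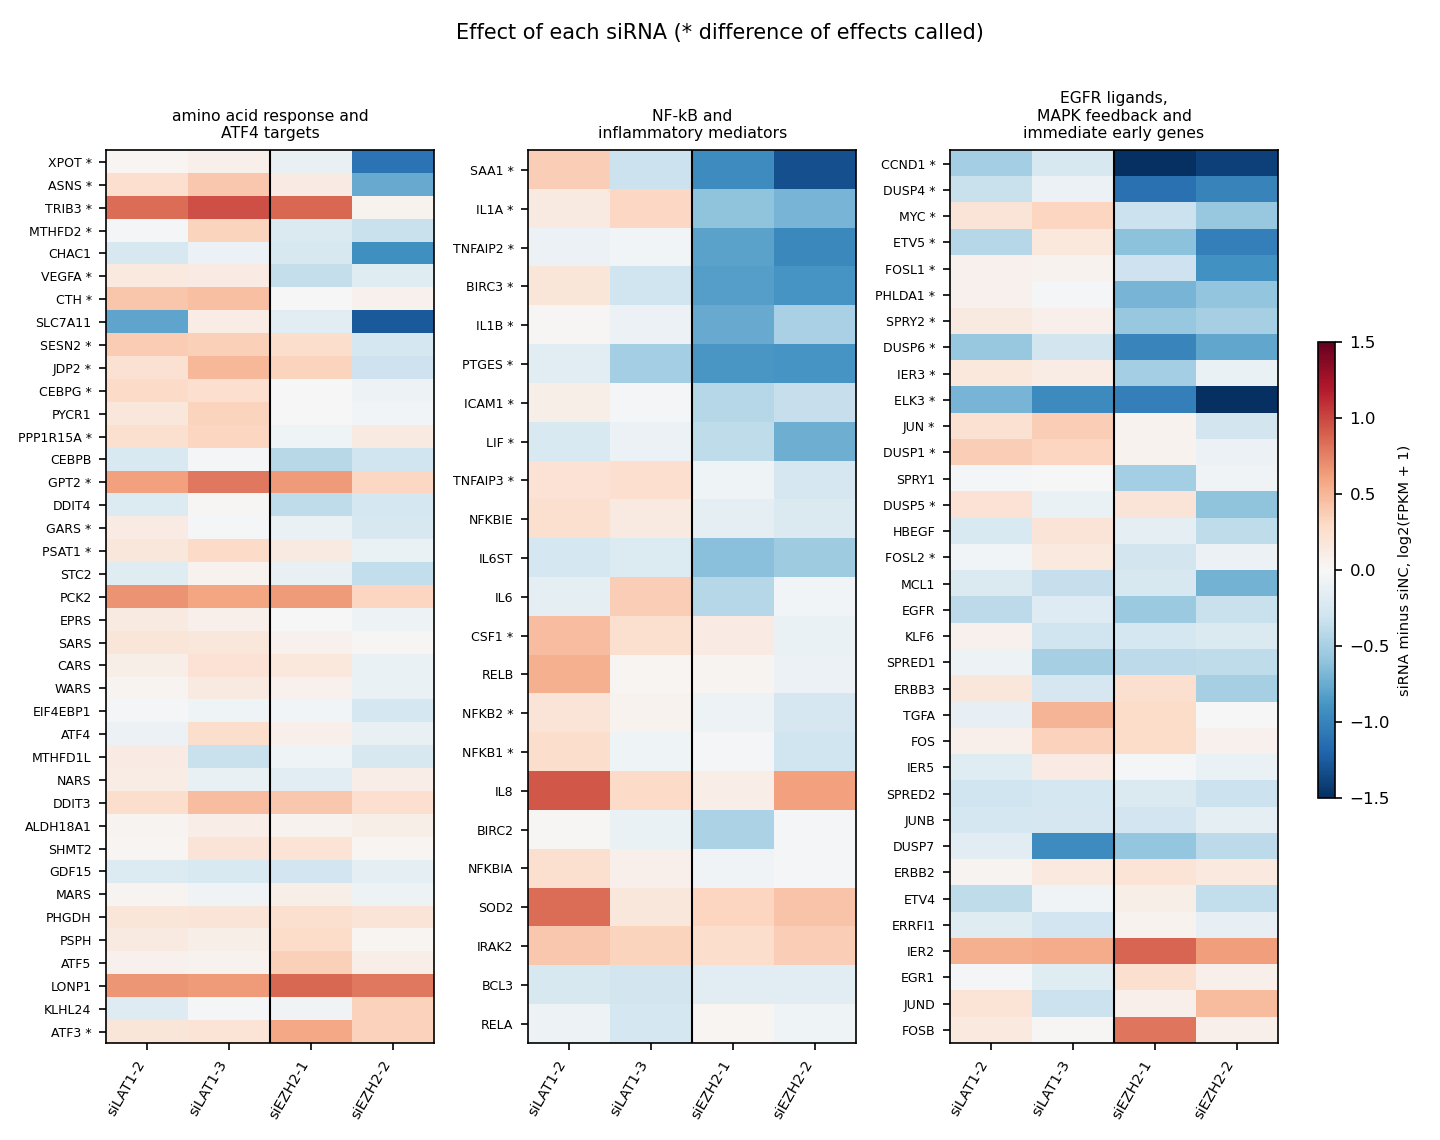
Effect of each siRNA relative to its own siNC (colour, log2(FPKM + 1); colours are cut at 1.5 in either direction) for every tested member of the amino acid response, inflammatory, and EGFR and MAPK lists, ordered by the difference; stars mark members whose difference was called. SAA1, IL1A, TNFAIP2, CCND1 and DUSP4 are blue, that is below siNC, with both EZH2 siRNAs, and XPOT and ASNS are blue with siEZH2-2 above all (ASNS -0.76).

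Methionine, folate and polyamine enzymes, which link methionine to methyl donors, had 6 of 28 members higher (10 without the second siEZH2-2 library) and 2 lower. MTRR, the methionine synthase reductase, measured 15.9 and 16.99 FPKM with siLAT1-2 and 18.7 and 16.6 FPKM with siLAT1-3, against 17.5 and 17.4 FPKM with siNC of the LAT1 series. MTRR in the EZH2 series stood at 7.16 and 6.51 FPKM with siEZH2-1 and 4.79 and 5.61 FPKM with siEZH2-2, against 10.9 and 10.1 FPKM with siNC of the EZH2 series. The siLAT1 libraries overlapped their siNC and the siEZH2 libraries lay below theirs, and the difference was called in all 4 pairings (difference 0.69, limma adjusted p = 0.00178). SAT1, which acetylates polyamines, rose with LAT1 siRNAs (0.30) and fell with EZH2 siRNAs (-0.25), a difference of 0.55 that was also called in all 4. MAT2B, the regulatory subunit of methionine adenosyltransferase, and APIP, an enzyme of methionine salvage, fell with siEZH2-1 (-1.49 and -1.22) and stood at 0.21 and 0.14 with siEZH2-2. The list of mTORC1 and its amino acid sensors had 4 of 39 members higher and 3 lower, a share of 17.9% called beside 14.9% of all genes. The 4 higher members became 0 without either siNC library of the LAT1 series or the first of the EZH2 series, and 2 without any siLAT1 library or the second siEZH2-1 library. Of histone and DNA methylation enzymes 5 of 55 were called, 3 higher and 2 lower (1 without any 1 of 5 libraries), a share of 9.09% beside 14.9% of all genes. Their 3 higher members became 0 without the first siNC library of the LAT1 series, 1 without 6 other libraries (its second, the first siNC and second siEZH2-1 of the EZH2 series, both of siLAT1-2 and the first of siLAT1-3), 5 without the first siEZH2-1 library and 7 without the second siEZH2-2 library.

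PRC2 and its targets differed in part. Apart from EZH2, the called PRC2 subunits were SUZ12 (0.54), the core subunit, MTF2 (0.47) and JARID2 (-0.27), both accessory subunits, and 10 of 14 were not called. SUZ12 fell with siEZH2-1 (-1.09) and stood at 0.14 with siEZH2-2. JARID2 lost the call under 14 of 20 alternatives. Of 31 Polycomb-target developmental regulators that passed the filter, out of 92 found, 6 had a higher difference and 1 a lower one, and 3 were called higher without any 1 of 3 siNC libraries (both of the LAT1 series and the first of the EZH2 series). The 1 lower member became 0 or 2 without any 1 of 10 libraries. HOXA9, a posterior homeobox gene picked out after its values were seen, measured 11.6 and 13.2 FPKM with siLAT1-2 and 9.34 and 9.82 FPKM with siLAT1-3, against 6.17 and 5.71 FPKM with siNC of the LAT1 series. HOXA9 in the EZH2 series stood near the filter, at 0.720 and 0.860 FPKM with siEZH2-1 and 1.00 and 0.810 FPKM with siEZH2-2, against 1.54 and 1.23 FPKM with siNC of the EZH2 series. It is 1 of the 6, but only its siNC libraries lifted it past the filter in the EZH2 table, so no difference is given for it. HOXA5 differed by 0.52, SOX7 by 0.56 and TFAP2A by 0.30. PRC1 subunits had 3 of 26 higher, led by BMI1 at 0.73 (limma adjusted p = 0.0033), a share of 11.5% called beside 14.9% of all genes.

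Of 13 replication-dependent histone genes tested, which package newly made DNA, 0 had a higher difference, 7 had a lower one and 6 were not called, with a median of -0.65. Taken by siRNA, 2 rose and 1 fell with siLAT1-2 (median 0.01), whereas 0 rose and 7 fell with siLAT1-3 (median -0.28). With siEZH2-1 9 rose and 0 fell (median 0.76), and with siEZH2-2 3 rose and 0 fell (median 0.09). HIST1H2AG measured 4.43 and 3.25 FPKM with siLAT1-2 and 3.07 and 3.65 FPKM with siLAT1-3, against 4.53 and 4.48 FPKM with siNC of the LAT1 series. HIST1H2AG in the EZH2 series measured 12.5 and 11.4 FPKM with siEZH2-1 and 5.17 and 5.04 FPKM with siEZH2-2, against 4.48 and 4.43 FPKM with siNC of the EZH2 series, so siEZH2-1 stood apart from the other groups. HIST1H2BK measured 145 and 131 FPKM with siLAT1-2 and 225 and 239 FPKM with siLAT1-3, against 259 and 264 FPKM with siNC of the LAT1 series. HIST1H2BK in the EZH2 series stood at 189.8 and 208 FPKM with siEZH2-1 and 107 and 96.1 FPKM with siEZH2-2, against 108 and 115 FPKM with siNC of the EZH2 series. It fell with siLAT1-2 above all and rose with siEZH2-1, and its difference was -0.90 (95% interval -1.09 to -0.71, limma adjusted p = 2.19e-04). In all 4 pairings 1 of the 7 was called, HIST1H1C, which was named after its values were seen. With a filter at 5 FPKM 4 were called lower. Most histone messengers lack a poly(A) tail and the genes are near copies, and library selection and the counting of shared reads are not stated, so these values are uncertain.

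Mitochondrially encoded transcripts, which code for parts of the respiratory chain, had 0 of 15 higher and 9 lower, with a median of -0.56. MT-ND4, a subunit of complex I, measured 1152 and 1533 FPKM with siLAT1-2 and 1379 and 1565 FPKM with siLAT1-3, against 1746 and 1818 FPKM with siNC of the LAT1 series. MT-ND4 in the EZH2 series stood at 1814 and 1988 FPKM with siEZH2-1 and 2062 and 1666 FPKM with siEZH2-2, against 1493 and 1472 FPKM with siNC of the EZH2 series. Libraries of the LAT1 siRNAs lay below and those of the EZH2 siRNAs above their siNC, and 0 members were called in all 4 pairings. In place of 9, 0 members were called without either siNC library of the LAT1 series, 1 and 2 without the first and second siNC library of the EZH2 series, 4 without the first siLAT1-3 library, 5 without the second siEZH2-1 library, 5 after quantile normalization and 0 with no filter.

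**Figure D4:**
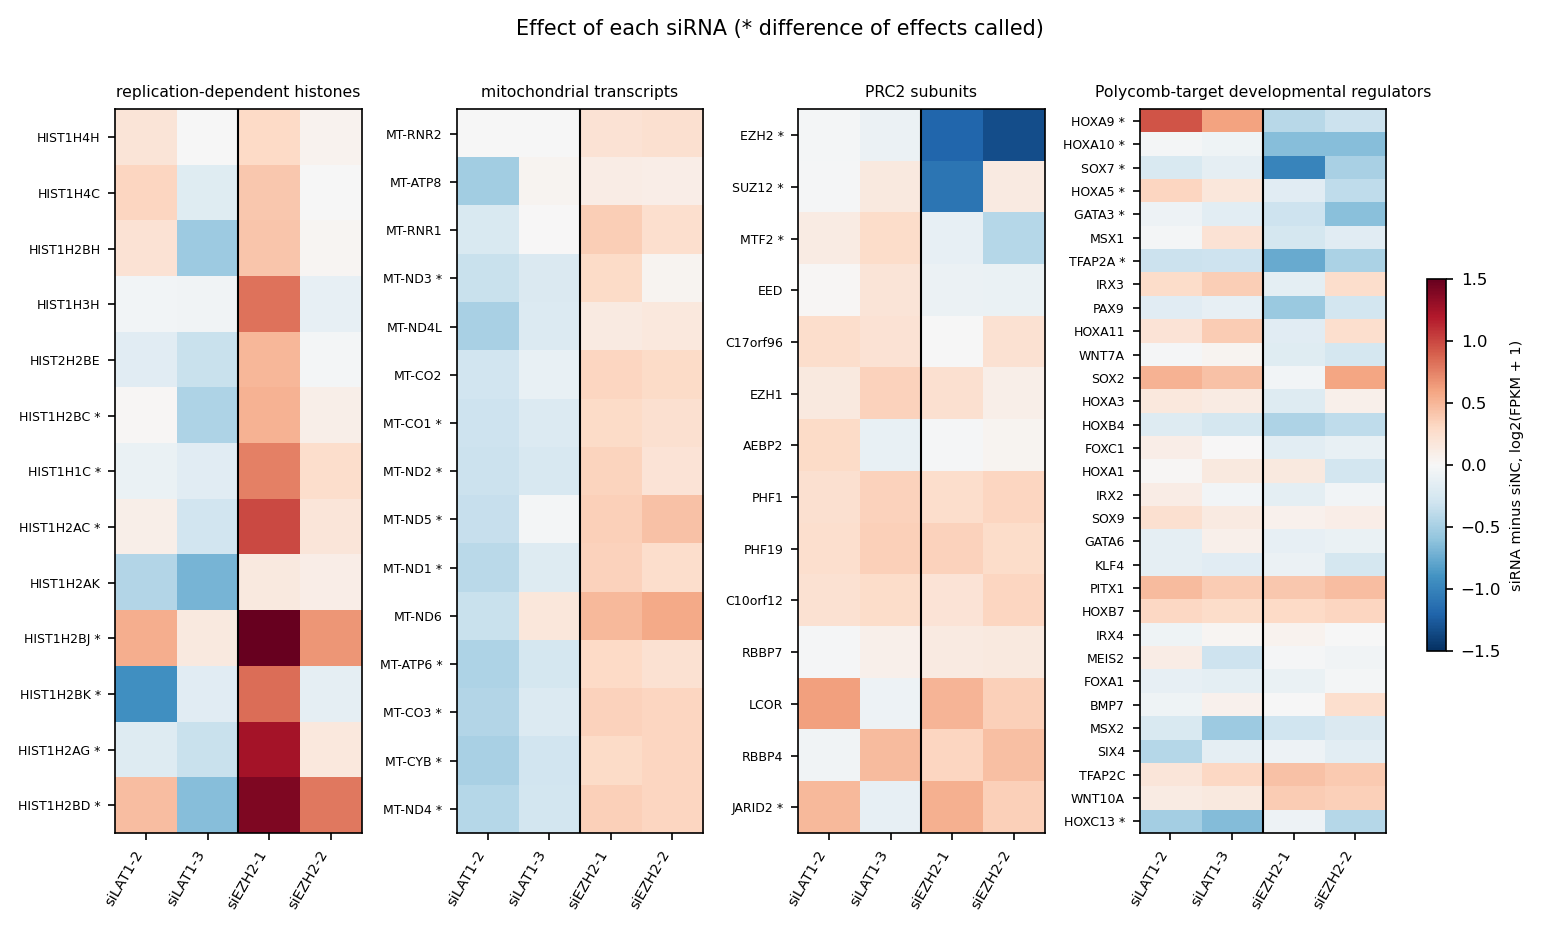
Effect of each siRNA relative to its own siNC (colour, log2(FPKM + 1), cut at 1.5) for every tested histone gene, mitochondrial transcript, PRC2 subunit and Polycomb-target regulator, with stars on called differences. Histone rows are mostly red with siEZH2-1 (median 0.76), mitochondrial rows are mostly blue with siLAT1-2 (median -0.34) and red with siEZH2-1 (median 0.33), and EZH2 is blue with both siEZH2.

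Squamous genes had calls in both directions. Basal identity genes had 7 of 43 members higher and 3 lower. ITGA6, the laminin-binding integrin of the basal layer, fell less with LAT1 siRNAs (-0.15) than with EZH2 siRNAs (-0.79), and KRT14, a basal keratin, fell with LAT1 siRNAs (-0.45, limma adjusted p = 0.00325) and stood at 0.07 with EZH2 siRNAs. Terminal differentiation genes had 1 of 16 higher, EMP1 at 0.49, and 4 lower, among them PPL, which encodes periplakin, at -0.23. Of the YAP and TAZ list 7 of 31 were higher, led by FJX1 at 0.59. Without the first or second siNC library of the LAT1 series or the first siNC library of the EZH2 series, 4, 3 and 3 basal genes were called higher and 1 lower in each case. The 4 lower terminal genes became 0 without the first siNC library of either series and 2 without 6 others, which were the second siNC library of each series, the second siLAT1-2 library, both siLAT1-3 libraries and the first siEZH2-2 library. The 7 higher YAP and TAZ genes became 2 without the first siNC library of the LAT1 series, 3 without that of the EZH2 series and 4 without the second siNC library of the LAT1 series, the second siLAT1-2 library, either siLAT1-3 library or the second siEZH2-1 library.

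Lists of secretion and stress gave calls in both directions. SEC23A, a coat protein of COPII vesicles, differed by 1.08 and TMED10, a cargo receptor, by 0.83, yet SEC23A moved by -2.001 and -0.79 with siEZH2-1 and siEZH2-2 and TMED10 by 0.05 and -1.55. XBP1, a transcription factor of the unfolded protein response, differed by 0.61, and HERPUD1, a degradation factor of the endoplasmic reticulum, by 0.59. The COPII list had 5 of 42 higher and 9 lower, and the unfolded protein response list 8 of 40 higher and 5 lower. The COPII list had 2 higher and 4 lower members without the first siNC library of the LAT1 series and 3 and 5 without the second, and 3 higher without any siLAT1 library or the first siNC library of the EZH2 series. For the unfolded protein response these counts were 4 and 2 without the first siNC library of the LAT1 series, 5 and 1 without the second and 5 and 2 without the second siNC library of the EZH2 series, with 3 lower without the first siLAT1-2 library. STX12, a syntaxin, rose with both targets, by 0.91 with LAT1 and 1.45 with EZH2 siRNAs. Sterol genes had 1 of 32 higher and 6 lower, among them HMGCS1 at -0.40 and IDI1 at -0.44, both enzymes of the mevalonate pathway, and the 6 became 1 and 2 without the first and second siNC library of the LAT1 series and 3 without the first of the EZH2 series. The 1 higher sterol gene became 0 or 2 without any 1 of 8 libraries. Hypoxia and glycolysis genes had 5 of 43 higher and 6 lower, with HK2, hexokinase 2, at 0.43 and PFKFB3, a driver of glycolytic flux, at 0.46 beside TPI1 at -0.71. Here the 6 lower genes became 2 without the first siNC library of either series and 3 without the second siLAT1-2, the first siLAT1-3 or the first siEZH2-2 library, and the 5 higher ones 3 without the second siNC library of the LAT1 series.

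Cell cycle genes had calls in both directions. The share called was 15.3% of S-phase, 17.6% of mitotic, 16.7% of p53-responsive and 17.4% of HLA class I genes, near the 14.9% of all genes. Of cytosolic ribosomal protein genes 6.58% were called, which is below that share. S-phase genes had 2 of 59 higher and 7 lower, and mitotic genes 3 of 51 higher and 6 lower, where ANLN, anillin, differed by 0.69 and TOP2A, a topoisomerase, by -0.34. Without the second siNC library of the LAT1 series 2 S-phase and 1 mitotic genes were called lower, and without the first of the EZH2 series 4 and 3. Without the second siEZH2-2 library 5 mitotic genes were called higher, and the 2 higher S-phase genes became 1 without any 1 of 10 libraries, as did the 2 lower genes of the cyclin D1 list. Of p53-responsive genes 3 of 30 were higher and 2 lower, with FAS, the death receptor, at 0.61 and DDB2, a DNA repair factor, at -0.55, and 1 was lower without either siNC library of the LAT1 series or the first of the EZH2 series. Interferon-stimulated genes had 3 of 31 higher and 3 lower, where IFIT2 differed by -0.55 and was called in all 4 pairings, and the 3 higher ones became 1 and 0 without the first and second siNC library of the LAT1 series and 5 without the second siEZH2-2 library. HLA class I presentation had 3 of 23 higher and 1 lower, with the peptide-trimming enzyme ERAP1 at 0.55 and HLA-E at -0.37. NRF2 targets had 5 of 34 in each direction, with 2 higher without the first siNC library of the LAT1 series, 3 higher without its second or the first of the EZH2 series, and 3 lower with any 1 library left out except the first siEZH2-1 and the second siEZH2-2 library. FTL, the ferritin light chain, differed by -0.60, and its siNC levels were 4643 and 4617 FPKM in the LAT1 series and 596 and 671 FPKM in the EZH2 series. The 76 cytosolic ribosomal protein genes gave 0 higher and 5 lower differences, with RPL31 at -0.53. Their 5 became 14 without the second siEZH2-2 library, 9 without the first siEZH2-1 library and 2 or 3 without either siNC or either siLAT1-2 library of the LAT1 series, the first siLAT1-3 library or the first siNC library of the EZH2 series. Of small RNA factors 3 of 17 were higher and 1 lower, with AGO2, the slicing Argonaute, at 0.57 and TSN at -0.66.

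**Figure D5:**
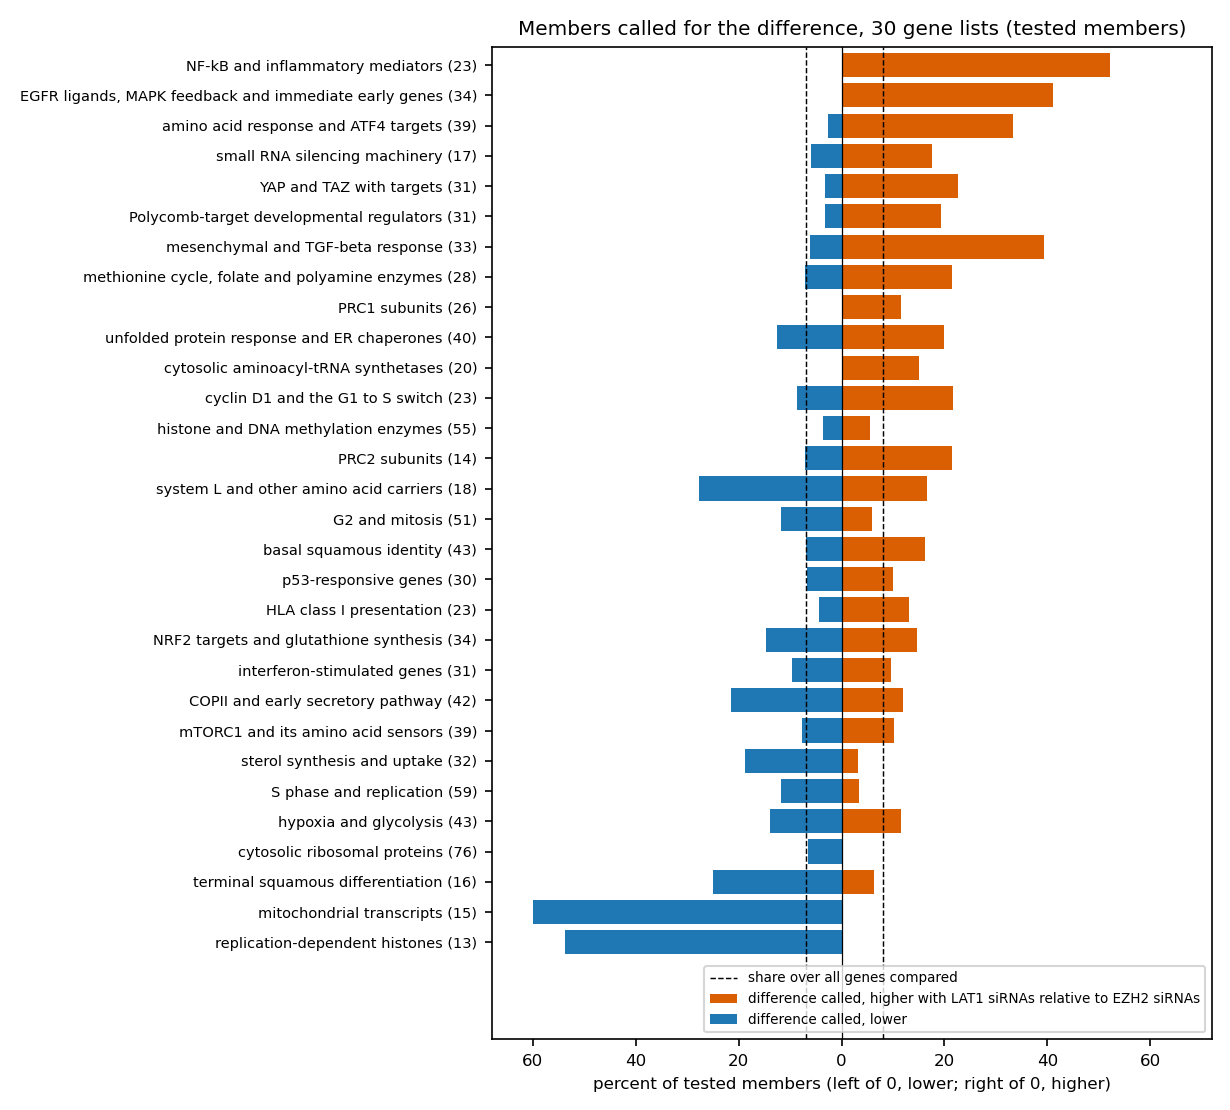
Percent of tested members whose difference was called, for 30 gene lists with the number of tested members in brackets; bars to the right are higher and bars to the left lower with LAT1 siRNAs relative to EZH2 siRNAs, and dashed lines give the shares over all 10804 genes, 7.97% and 6.89%. The inflammatory list has the longest bar to the right, with 12 of 23 members, and the mitochondrial and histone lists the longest to the left, with 9 of 15 and 7 of 13.

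Levels with siNC differed between the series for many genes. The siNC means were less than 0.5 apart on the log2 scale for 7443 genes, of which 14.4% had a called difference, 0.5 to 1 apart for 2665 genes, of which 15.2% did, and 1 or more apart for 696 genes, of which 18.4% did. These limits were set after the data were seen.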

How the data were processed

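RNA of KYSE510 cells was measured in 12 libraries, 6 per series. The authors deposited 1 table per series, read here as FPKM from its values, since the file headers do not name the unit; the builds hg19 and hg38 are both named, per the submitters' processing notes, without saying which these tables used, and the counting program and its handling of shared reads and of strand are not given in the sources used here. Depth was estimated from the size of the steps between low FPKM values. Values were compared as log2(FPKM + 1) for genes whose mean reached 1 FPKM in both tables. A limma 3.58.1 model (R 4.3.3) with the 6 groups gave the difference, and 1 model per table gave each effect. Benjamini-Hochberg adjustment ran over 10804 genes, with two-sided calls under 0.05. The method was tested on simulated data, in which both siRNAs of a target had equal effects and libraries varied independently, unlike the real libraries. The text names the targets, the 6 widest differences per class and up to 4 called members per list, from means of at least 3 FPKM in both tables; others are marked. Members and lists were chosen with earlier results of these data known. Alternatives covered normalization, pseudocount, filter, pooling, a replicate block, separate fits and each library left out, and a block with the numbers of siEZH2-2 exchanged was added after seeing the data. Because symbols in the files are older than those of RefSeq, TMEM194A is now NEMP1, TCEB3 ELOA, MLLT4 AFDN, C5orf28 TMEM267 and IL8 CXCL8. The 2 EZH2 CUT&Tag samples were not analysed here.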

Additional observations from a re-analysis of the deposited data

Results flagged for a closer look

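Among the genes named from the classes, 4 changed by unequal amounts with the siRNAs of 1 target, tested as 1 siRNA minus the other within a series and picked out where the size was at least 0.8 on the log2 scale, a size chosen after the data were seen. TPI1 differed by -0.94 on the log2 scale for siLAT1-3 minus siLAT1-2 (95% interval -1.04 to -0.84, limma adjusted p = 2.27e-05). THBS1 differed by -1.04 with siEZH2-2 minus siEZH2-1 (95% interval -1.25 to -0.83, limma adjusted p = 6.37e-04), LINC00657 by -0.90 (limma adjusted p = 0.00207) and EIF3A by -1.10 (limma adjusted p = 1.12e-04). For EIF3A the EZH2 effect was -0.20 with siEZH2-1 and -1.31 with siEZH2-2, and every siRNA kept its direction.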

How the results depend on the processing

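The calls rested on the spread within each siRNA group. Of 1605 genes with a called difference, 35 were called with both siRNAs of a target pooled (28 in place of 861 higher and 7 in place of 744 lower), and 24 had a size of at least 1. With pooling, the LAT1 effect was called for 1270 in place of 3919 genes and the EZH2 effect for 1173 in place of 3466, and 3 LAT1-specific, 12 EZH2-specific and 6 opposite genes were counted in place of 38, 80 and 17. Without a filter, the EZH2 effect was called for 2069 genes and 5 genes moved in opposite directions. EZH2-specific genes numbered 50 with a filter at 5 FPKM and 122 with separate fits. Quantile normalization gave 1674 called differences and median centring 1606, and no named gene reversed in any setting. Same-numbered libraries deviated together at r = 0.014 to 0.069 in the LAT1 series and -0.436 to 0.468 in the EZH2 series, where siEZH2-2 ran against siEZH2-1 and siNC, so the numbers as labelled were not taken as pairs. With the replicate block 997 differences were called, 563 higher and 434 lower, and 8 genes moved in opposite directions. With the numbers of siEZH2-2 exchanged in the block, an alternative chosen after seeing the data, 3352 differences were called (1717 higher, 1635 lower), 6249 EZH2 effects, and 24 LAT1-specific, 131 EZH2-specific and 40 opposite genes. Leaving out 1 library at a time gave 748 to 1959 called differences, 421 to 1073 higher and 312 to 886 lower, 2294 to 3499 LAT1 effects and 1455 to 3457 EZH2 effects, 21 to 43 LAT1-specific, 45 to 105 EZH2-specific and 5 to 14 opposite genes. The cause of these shifts was not tested.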

Other observations

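Several of the 24 differences of at least 1 in size came mostly from 1 siRNA of a target, and the genes here were chosen after their values were seen. CYB5R3, a reductase of cytochrome b5, changed by -2.02 with siLAT1-2 and -0.02 with siLAT1-3, and by 0.18 and 0.14 with siEZH2-1 and siEZH2-2. SDHC, like SDHD a membrane anchor of succinate dehydrogenase, showed the same order, with -1.502 for siLAT1-2 and -0.02 for siLAT1-3, and 0.30 and 0.21 for siEZH2-1 and siEZH2-2. FAM210B, a mitochondrial protein, went the other way round, with 0.31 for siLAT1-2 and -1.46 for siLAT1-3, and 0.71 and 0.50 for siEZH2-1 and siEZH2-2. Both EZH2 siRNAs therefore added to the difference for FAM210B as well. RAB12, a small GTPase of vesicle transport, stood at -2.04 with siEZH2-1 and -0.15 with siEZH2-2, while FZD6, a Wnt receptor, stood at -0.22 and -1.59. UGCG, which makes glucosylceramide, was unlike these and stood below siNC with both EZH2 siRNAs. It differed by 1.17, from -0.01 and -0.26 with siLAT1-2 and siLAT1-3 and -1.02 and -1.59 with siEZH2-1 and siEZH2-2.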
